A study of Rattus norvegicus and Mus musculus with 10 samples.

Results

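The genes described here are 44 members of the cell division programme, matched to the files by gene symbol: 27 genes of the G2 phase and mitosis (G2/M) and 17 genes of DNA synthesis (S). The rat files hold 43 of them among 32883 genes, with 26 of the 27 G2/M genes, and the mouse files hold 44 of 44 among 31053 genes. Counts of Ccnb2 were not analysed here in the rat. Their unique molecular identifiers (UMIs, each marking 1 captured transcript) were summed within every leukocyte cluster that the authors annotated, separately for each rat tissue and each mouse condition, and divided by all UMIs of those cells to give counts per 1000000 UMIs (CPM).

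A dividing cell copies its DNA in S phase with helicases, polymerase clamps and nucleotide enzymes, and then condenses and separates its chromosomes in mitosis with cyclins, kinases, kinetochore proteins and motors. Many S genes are switched on by E2F factors in late G1. Many G2/M genes are held down by the DREAM complex in resting cells and are activated later through B-MYB, FOXM1 and NF-Y, acting at promoter words known as the cell cycle genes homology region (CHR) and the CCAAT box. In the leukocyte lineages of bone marrow and meninges, precursors divide, whereas most circulating lymphocytes and mature myeloid cells rest until they are stimulated.

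The study profiled single leukocytes with droplet 3′ RNA sequencing. The mouse samples were cells from the skull dura, the outer meningeal membrane, of C57BL/6 mice: 3 pooled animals at the peak of active experimental autoimmune encephalomyelitis (EAE, immunization-induced inflammation of the central nervous system) and 4 pooled unimmunized animals, here called naive. The rat samples came from naive Lewis rats, 25 in the whole study, and give 1 library each for the dura, the pia, the choroid plexus, the central nervous system tissue (CNS), the cerebrospinal fluid (CSF) and blood. Rat cells from the dura, pia, choroid plexus and CNS were sorted for CD45 and against CD45 antibody injected into the bloodstream. Blood cells were taken from a density gradient and CSF cells were unsorted, so sorting and tissue cannot be told apart in comparisons with blood or CSF. Rat libraries used v2 and mouse libraries v3 chemistry, and no value is compared between the species as a level. Both mouse conditions carry the same condition entry in the labels, and the groups were taken from the sample titles and the deposited annotation. Each group is 1 library, so no test of a condition or tissue was possible, and every interval below is a 95% interval for counting error alone. The 2 B-cell receptor libraries completed the 10 samples and were not used here.

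The rat dura library held 4953 annotated cells with a median of 1705 UMIs, and the other rat libraries held 2272 to 4039 cells with medians of 981 to 2704 UMIs. The EAE library held 4579 cells with a median of 11743 UMIs and no cell under 5722, whereas the naive library held 2776 cells with a median of 4163.5 and a lowest cell of 503 UMIs. Among annotated barcodes, 487 of 21187 in the rat and 14 of 7355 in the mouse had a sequence that also occurred in another library of that species. Over all annotated cells the G2/M genes summed to 2151 CPM in the rat dura, against 289 CPM in blood, 318 CPM in the CNS, 420 CPM in the pia, 450 CPM in the CSF and 461 CPM in the choroid plexus. The S genes summed to 669 CPM in the dura and to between 264 and 343 CPM in the other tissues. In the mouse dura the G2/M sum was 1006 CPM in EAE and 616 CPM in naive mice, and the S sum was 377 CPM in EAE and 329 CPM in naive mice.

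The promoters of the members show how the S and G2/M genes differ in sequence, independently of the counts. RefSeq promoters of the rat build GRCr8 (250 bases before to 50 after the start of each gene) were matched for 23 G2/M and 13 S members. The submitters' processing notes name another rat build, Rnor_6.0, so these stretches serve only as sequence and not as positions in the files. Searches on both strands looked for the CHR as TTTGAA in its common form, as TTCGAA in a variant form and as TTTAAA in another, for the CCAAT box as CCAAT, and for E2F as TTTCCCGC, TTTCGCGC, TTTGCCGC and TTTGGCGC. No word lies inside another, though matches of different words may overlap at their ends. The following 200-base stretches run from 170 bases before to 30 bases after the annotated start, 5′ to 3′ along the gene, with every match on either strand in capitals. They are shown for Stmn1, the member with the most UMIs in the rat dura, for 5 mitotic genes that act from entry to chromosome separation, and for a pair of helicase genes from the S set.
Mki67 (the Ki-67 protein that coats mitotic chromosomes, GRCr8 chr1:199952564-199952763, minus strand): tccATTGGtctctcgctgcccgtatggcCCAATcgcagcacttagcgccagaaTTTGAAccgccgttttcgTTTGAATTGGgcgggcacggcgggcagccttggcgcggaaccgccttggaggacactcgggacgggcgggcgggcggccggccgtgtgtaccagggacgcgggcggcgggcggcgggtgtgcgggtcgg
Top2a (the DNA topoisomerase that untangles sister chromatids, GRCr8 chr10:84473064-84473263, minus strand): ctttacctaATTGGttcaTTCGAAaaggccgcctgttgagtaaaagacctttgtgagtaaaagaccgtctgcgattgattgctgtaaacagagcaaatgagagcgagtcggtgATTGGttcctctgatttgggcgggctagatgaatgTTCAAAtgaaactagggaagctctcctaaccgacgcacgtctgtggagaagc
Stmn1 (the tubulin-binding protein stathmin, GRCr8 chr5:151965009-151965208, plus strand): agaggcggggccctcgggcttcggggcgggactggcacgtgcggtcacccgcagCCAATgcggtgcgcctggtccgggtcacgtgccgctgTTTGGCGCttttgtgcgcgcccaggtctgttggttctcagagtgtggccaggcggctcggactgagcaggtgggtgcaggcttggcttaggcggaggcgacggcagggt
Ccnb1 (cyclin B1, GRCr8 chr2:33655196-33655395, minus strand): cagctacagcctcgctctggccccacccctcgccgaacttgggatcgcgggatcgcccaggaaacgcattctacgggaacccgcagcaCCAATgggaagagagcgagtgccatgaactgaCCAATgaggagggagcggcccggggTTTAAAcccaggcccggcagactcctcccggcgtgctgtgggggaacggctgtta
Cdk1 (the kinase that drives mitotic entry, GRCr8 chr20:19265123-19265322, plus strand): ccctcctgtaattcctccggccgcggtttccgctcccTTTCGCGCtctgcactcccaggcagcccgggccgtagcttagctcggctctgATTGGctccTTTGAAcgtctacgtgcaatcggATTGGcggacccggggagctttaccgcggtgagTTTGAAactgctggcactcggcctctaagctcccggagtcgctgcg
Cenpf (a kinetochore protein, GRCr8 chr13:103760857-103761056, minus strand): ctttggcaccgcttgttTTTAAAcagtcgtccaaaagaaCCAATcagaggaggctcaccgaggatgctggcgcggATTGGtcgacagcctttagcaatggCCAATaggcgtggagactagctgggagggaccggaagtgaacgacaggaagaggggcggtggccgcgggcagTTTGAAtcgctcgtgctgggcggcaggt
Mcm3 (a subunit of the replicative helicase, GRCr8 chr9:30733717-30733916, minus strand): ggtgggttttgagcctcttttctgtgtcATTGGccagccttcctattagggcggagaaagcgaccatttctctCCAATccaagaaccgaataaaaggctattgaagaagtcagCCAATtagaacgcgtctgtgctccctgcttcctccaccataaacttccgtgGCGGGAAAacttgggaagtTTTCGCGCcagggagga
Mcm5 (another subunit of that helicase, GRCr8 chr19:13488643-13488842, plus strand): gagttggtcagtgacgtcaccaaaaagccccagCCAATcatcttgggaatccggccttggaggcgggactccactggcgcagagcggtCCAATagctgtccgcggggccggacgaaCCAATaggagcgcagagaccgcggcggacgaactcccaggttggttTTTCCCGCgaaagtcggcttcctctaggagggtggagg

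The CHR was found in 21 of 23 G2/M promoters (91.3%) and in 4 of 13 S promoters (30.8%), against 29.2% of all 27457 rat promoters of the same length. The exceptions among the G2/M genes were Stmn1 and Cdca3, a mitotic entry factor. The E2F words ran the other way, with 2 of 23 G2/M promoters (8.70%) and 8 of 13 S promoters (61.5%) against 2.25% of all promoters. The 8 S promoters were those of the helicase subunits Mcm2, Mcm3, Mcm5, Mcm6 and Mcm7, the licensing factor Cdt1, thymidylate synthase Tyms and uracil glycosylase Ung. Both sets shared the CCAAT box, in 19 of 23 G2/M (82.6%) and 10 of 13 S promoters (76.9%) against 37.7% of all. A CHR together with a CCAAT box occurred in 17 of 23 G2/M promoters (73.9%), in 3 of 13 S promoters (23.1%) and in 11.6% of all promoters. In Ccnb1, for example, CCAAT words begin at positions -82 and -50 and the CHR word at -25, counted from the start site. A match is a description of letters and not of a bound site.

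**Figure D1:**
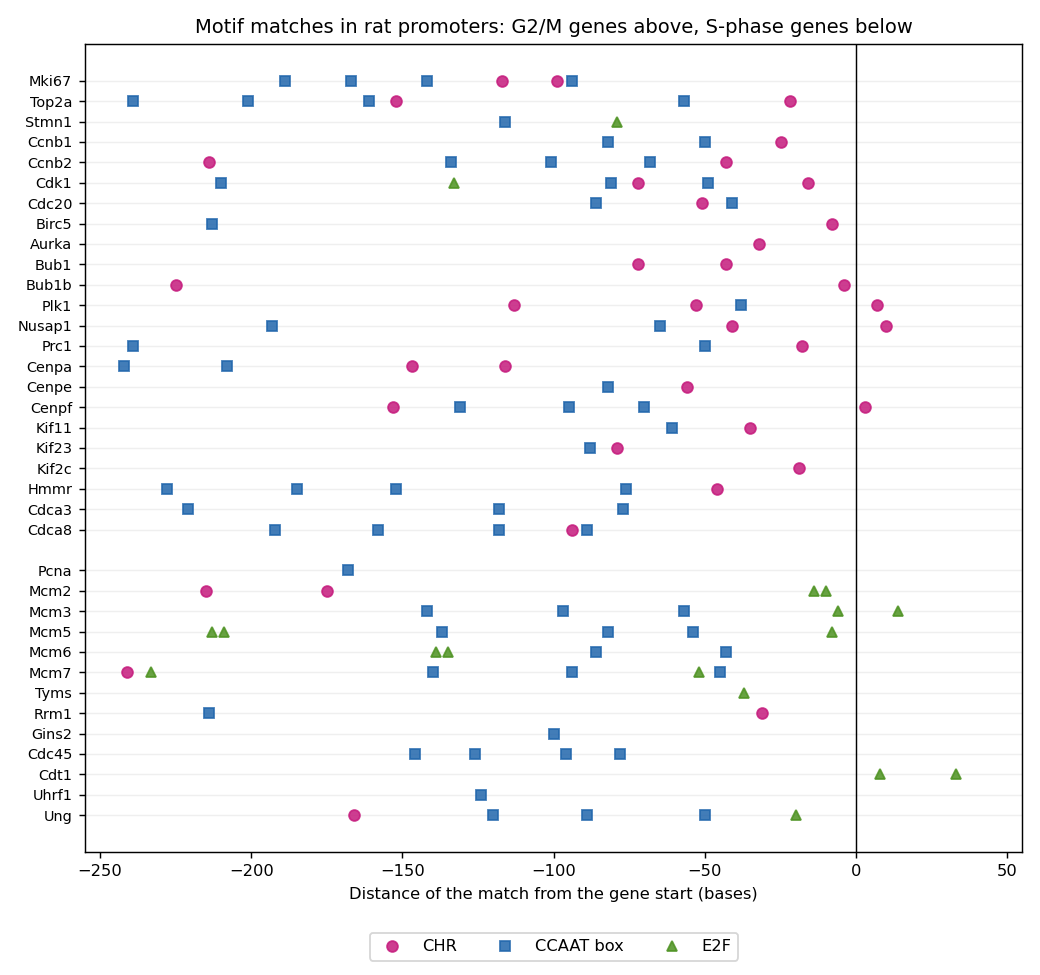
Positions of CHR, CCAAT and E2F words in the matched rat promoters of the G2/M and S genes, with distance from the annotated start in bases on the x axis and 1 row per gene. CHR words fill the G2/M rows (21 of 23) and E2F words the S rows (8 of 13), while CCAAT words occur in both.

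In the rat dura the division genes were concentrated in 1 B lineage cluster, which the authors named Bc2. Its G2/M sum was 15147 CPM (14894 to 15404) and its S sum 2931 CPM, from 371 cells with a median of 2199 UMIs. These cells were 7.49% of annotated dural cells and held 62.9% of all dural G2/M UMIs and 39.1% of the S UMIs. Clusters were made by the authors from whole transcriptomes that include these genes, so levels by cluster are a description and not a test. The next dural clusters by G2/M sum were the one named micro at 4514 CPM, the B cell cluster Bc1 at 2414 CPM and myeloid3 at 1630 CPM. Natural killer cells (NK) followed at 1101 CPM and CD4 T cells (CD4 Tc) at 1015 CPM. The remaining clusters with at least 20 dural cells lay between 205 CPM in plasmacytoid dendritic cells and 580 CPM in myeloid1.

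**Figure D2:**
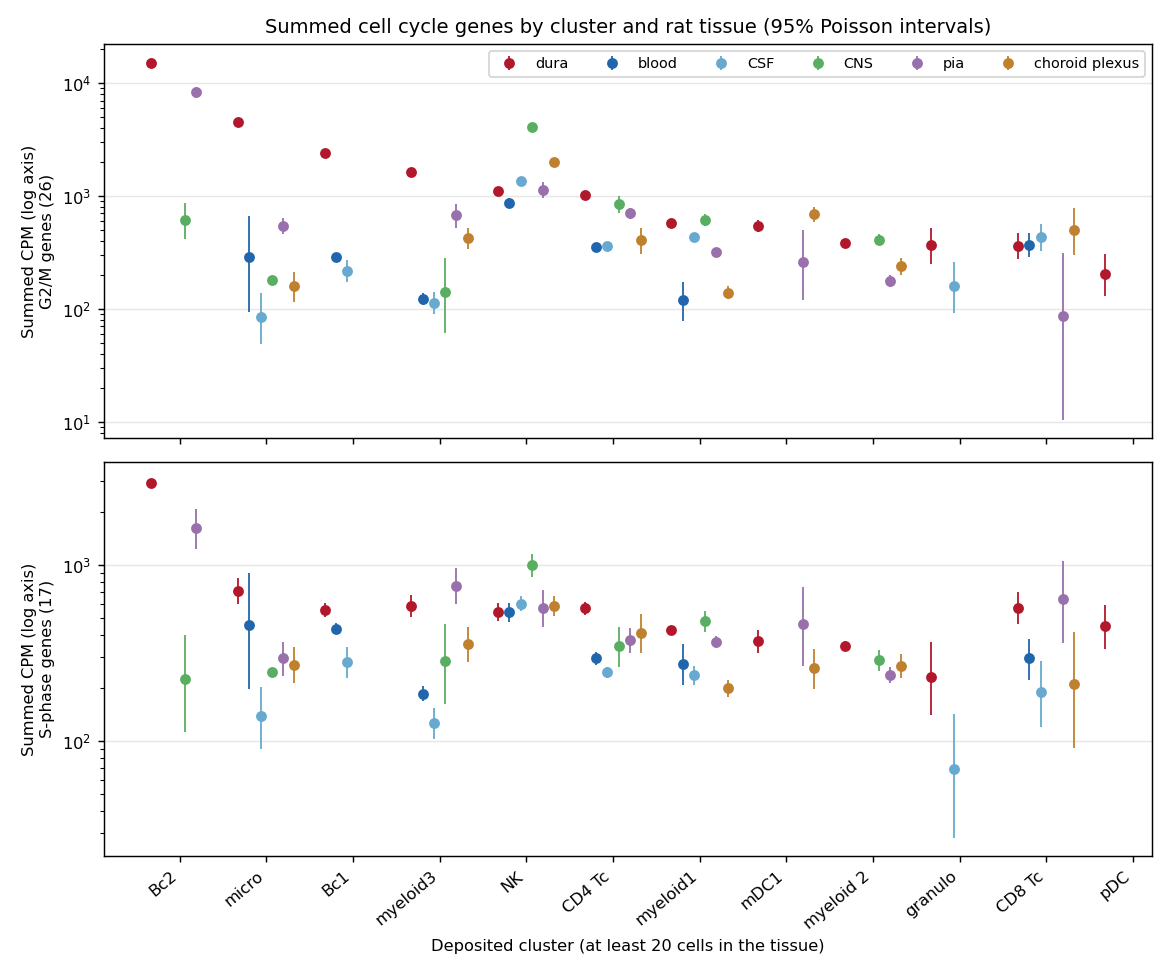
Summed G2/M and S genes in CPM on a log axis, by authors' cluster and rat tissue, with 95% counting intervals. Dural Bc2 stands at 15147 CPM for G2/M, and blood Bc1 (289 CPM) and CNS micro (180 CPM) stand near the low end.

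Each of the 43 members had its highest dural level in Bc2. Among genes of mitotic entry and exit, Cdk1 reached 355 CPM, Ccnb1 164 CPM, the other mitotic cyclin Ccna2 208 CPM, and Cdc20 and Ube2c, which act with the anaphase-promoting complex, 294 and 856 CPM. Spindle and kinetochore genes included the microtubule organizer Tpx2 at 386 CPM, Nusap1 at 427 CPM, the centromeric histone Cenpa at 323 CPM and Cenpf at 606 CPM. The chromosomal passenger genes Birc5, Aurkb and Cdca8 stood at 515, 184 and 351 CPM. Mki67 had 433 UMIs (481 CPM) in 190 of the 371 cells, and Top2a 797 UMIs (885 CPM) in 223 cells. Every G2/M gene was therefore measured in this cluster, down to the checkpoint kinase gene Bub1b with 43 UMIs (47.7 CPM). Stmn1 alone contributed 7230 CPM, and the G2/M sum without it was 7917 CPM. Among the S genes, the clamp Pcna had 905 CPM, the ribonucleotide reductase subunit Rrm1 276 CPM and Mcm6 234 CPM. Its partner subunit Rrm2 had 11 UMIs there (12.2 CPM) and 14 in all annotated dural cells, against 433 for Rrm1.

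Within Bc2, 256 of the 371 cells (69.0%) carried 5 or more G2/M UMIs other than Stmn1 and held 98.2% of the cluster's G2/M UMIs. To allow for depth, each cell was thinned to 500 UMIs, which left out no cell of the clusters quoted here, and the share with 2 or more such UMIs was computed. It was 61.1% (55.9 to 66.1) in dural Bc2, 10.1% in dural micro, 6.69% in dural myeloid3 and 5.58% (4.12 to 7.36) in dural Bc1. In blood Bc1 it was 0.456% (0.160 to 1.02). CNS micro and blood CD4 Tc, taken as background, gave 0.501% and 0.496%, and their median depths of 2722 and 2645 UMIs exceed that of dural Bc1 (850.5 UMIs). Without thinning the shares were 77.1% in dural Bc2, 8.01% in dural Bc1, 2.77% in blood Bc1 and 8.51% in CNS micro. The dural Bc1 and Bc2 shares thus lay above both background clusters when depth was equal, and the blood Bc1 share did not.

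The Bc2 cells rich in G2/M transcripts differed from the others in genes of early B cell development. Cells were split at 5 G2/M UMIs (Stmn1 not counted), which gave 256 rich cells with a median of 2590.5 UMIs and 115 others with a median of 1306. Dntt, the polymerase that adds bases at immunoglobulin joints, had 88.9 CPM in rich cells and 907 CPM in the others (10.2-fold lower, 7.60 to 13.8). The recombinase gene Rag1 had 20.8 CPM in rich cells and 127 CPM in the others (6.11-fold lower, 3.05 to 12.6). The surrogate light chain genes Vpreb1 and Igll1 had 197 and 1428 CPM in rich cells, against 1273 and 4283 CPM in the others. Rag2 had 65.3 CPM in rich cells and 55.3 CPM in the others, with an interval of the ratio (0.588 to 2.62) that includes 1. The heavy chain gene Ighm ran the other way, with 3257 CPM in rich cells and 2285 CPM in the others. The 2 groups are cells of 1 library, and depth differed between them.

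Outside the dura, few cells carried the Bc2 name and they went against it. The 26 pial Bc2 cells had a G2/M sum of 8319 CPM (7431 to 9284) and the 36 CNS cells 610 CPM (412 to 871). The dural sum was 1.82-fold (1.63 to 2.04) that of the pia and 24.8-fold (17.4 to 36.8) that of the CNS. The B cell markers Cd79a, Cd79b, Ms4a1 and the rest of that list summed to 3695 CPM in dural Bc2 and to 0 in both pia and CNS Bc2, and monocyte and macrophage markers summed to 873 CPM in the dura, 12544 CPM in the pia and 14404 CPM in the CNS. Their part in the difference was not tested. The choroid plexus, CSF and blood had 10, 6 and 5 Bc2 cells, too few to compare.

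Where in the dura the transcripts of each gene lay was described with the G2/M genes themselves. For every member, the share of its dural UMIs lying in cells with 5 or more UMIs of the other G2/M genes (Stmn1 not counted) was computed; such cells made up about 8.08% of annotated dural cells and held about 12.5% of all UMIs. The rule counts G2/M transcripts, so it favours G2/M genes over S genes, and cells in S phase with few G2/M transcripts fall outside it. The shares are a description and not a test of the gene sets. For the 26 rat G2/M genes the median share was 92.8%, from 67.3% for Aurka, the centrosomal kinase gene, to 96.9% for Plk1, another mitotic kinase gene. Top2a had 95.9% and Mki67 88.2% of UMIs there. For the 16 S genes with enough UMIs the median was 54.5%, from 22.0% for Ung to 84.4% for E2f8, a repressor of the E2F family. Pcna had 30% (28.4 to 31.6) and Mcm3 38.9%, so most transcripts of both lay in cells with few G2/M transcripts. In the mouse dura Cenpa was also left out of the cell rule. Such cells made up about 12.3% of EAE and 2.92% of naive cells, and held about 20.5% and 7.85% of all UMIs. The 2 libraries also differed in depth, so a difference in share between them is not read as a change. The G2/M median was 91.6% in EAE and 83.6% in naive mice, and the S median was 66.9% in EAE and 47.7% in naive mice. Cenpa had 88.3% in the rat dura, 42.2% in EAE and 15.7% in naive mouse dura, and its 2442 naive UMIs mostly lay outside such cells. Its CPM in such cells was 2.83-fold that of the other cells in EAE and 2.18-fold in naive mice. Kif23, a motor of cytokinesis, had 90.9% in the rat dura, 68.0% in EAE and 32.1% in naive mice. In the other direction Rrm2, in the S set, had 94.6% in EAE and 84.8% in naive mice.

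**Figure D3:**
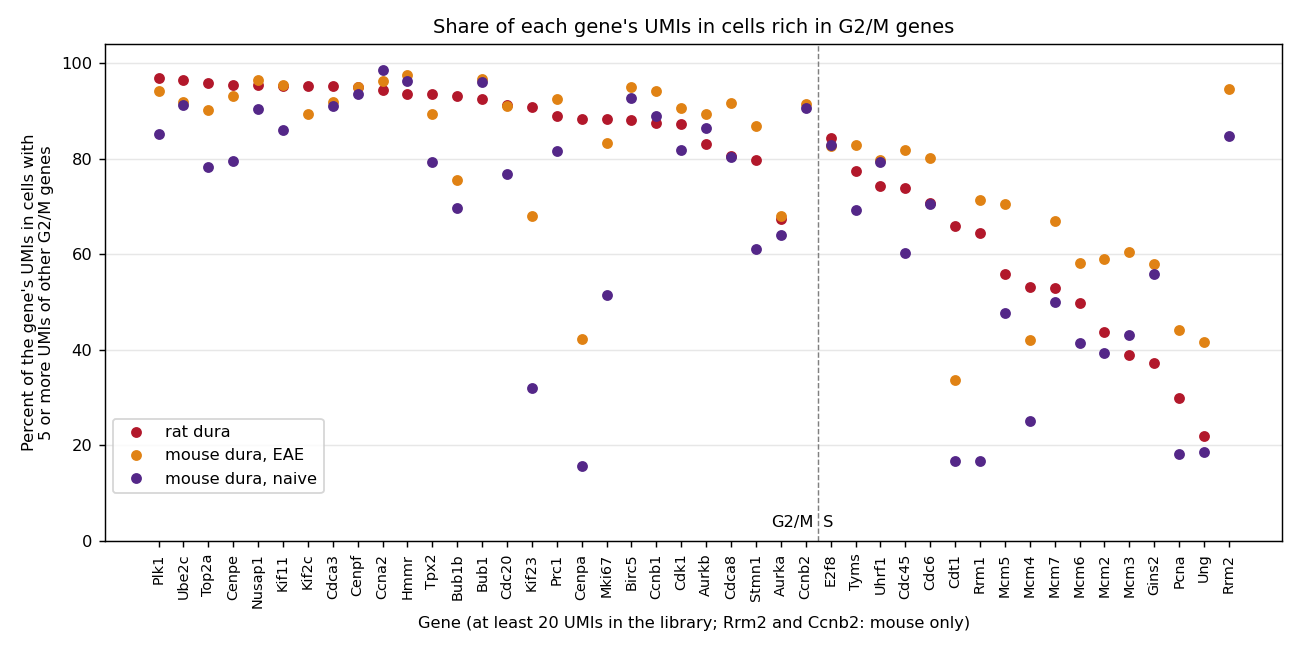
Percent of each member's UMIs that lie in cells with 5 or more UMIs of other G2/M genes, in rat dura, EAE mouse dura and naive mouse dura, with 1 point per gene. Rat G2/M genes lie between 67.3% and 96.9% and S genes between 22.0% and 84.4%. Cenpa has 15.7% in naive mice, where such cells held about 7.85% of all UMIs.

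Dural Bc1, a cluster of B cells, carried more of the G2/M programme than blood Bc1, while its S genes were mixed. The G2/M sum was 2414 CPM in 836 dural cells and 289 CPM in 1226 blood cells, 8.35-fold higher (7.61 to 9.17). The S sum was 557 CPM in dura and 435 CPM in blood (1.28-fold, 1.14 to 1.43), and without Pcna it was 336 CPM in dura and 357 CPM in blood (ratio 0.941). Of the 19 G2/M genes with at least 20 UMIs over both tissues, 18 were at least 2-fold higher in dura and none was 2-fold lower. Over all 7320 genes with that depth, 13.3% were at least 2-fold higher and 14.6% at least 2-fold lower. The median log2 ratio was 3.80 over those 19 genes and 0.03 over all genes. A gene with few UMIs in blood could pass the filter through the dura, so the counts describe the genes that passed. Of the other 7 G2/M genes, 6 had 11 to 17 UMIs in dura and 2 to 5 in blood, and Bub1b had 3 UMIs in dura and 16 in blood.

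Among the G2/M members, Stmn1 had 887 UMIs (1056 CPM) in dura and 276 UMIs (138 CPM) in blood, 7.67-fold higher. Mki67 had 64 UMIs (76.2 CPM) in dura and 11 UMIs (5.48 CPM) in blood, 13.9-fold higher (7.27 to 29.2). Top2a had 84.5 CPM in dura and 2.49 CPM in blood, 33.9-fold higher (13.9 to 108). The steepest ratios belonged to genes of the kinetochore, the spindle and mitotic entry. Cenpf had 129 UMIs in dura and 4 in blood, 77.0-fold higher (29.4 to 287), Nusap1 36 UMIs in dura and 1 in blood (ratio 86.0, 14.5 to 3489), and Cdca3 29 UMIs in dura and 2 in blood (ratio 34.6, 8.76 to 299). Ube2c had 164 CPM in dura and 4.98 CPM in blood, 33.0-fold higher (17.4 to 70.3). Smaller ratios were seen for Ccnb1, with 77.4 CPM in dura and 15.0 CPM in blood, and for Birc5, with 117 CPM in dura and 30.9 CPM in blood. Aurka was the measured G2/M gene under 2-fold, with 28.6 CPM in dura and 20.4 CPM in blood (1.40-fold, 0.808 to 2.37). Blood Bc1 therefore held Aurka and Birc5 transcripts at a level where Top2a and Cenpf had 5 and 4 UMIs.

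**Figure D4:**
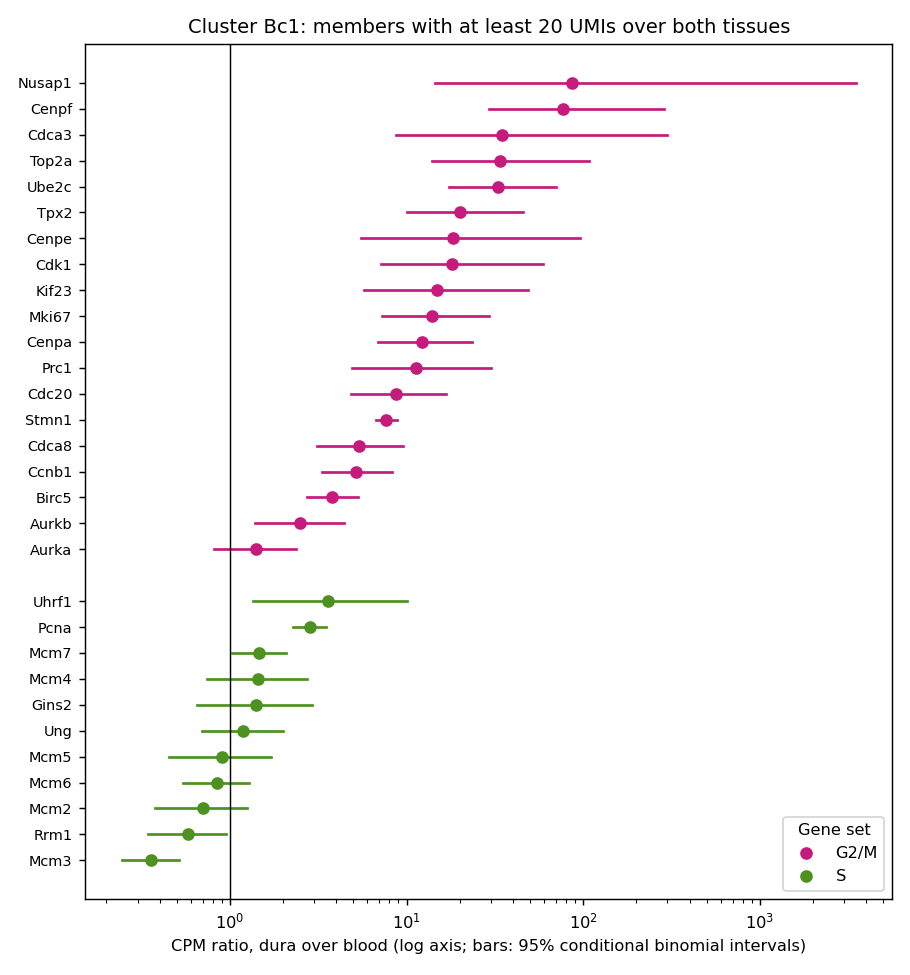
CPM ratio of dura over blood in Bc1 on a log axis, with 95% conditional binomial intervals and 1 row for each of the 19 G2/M and 11 S genes with at least 20 UMIs over both tissues. The line marks equality, and 18 of the 19 G2/M genes lie above 2-fold (Cenpf at 77.0-fold), whereas the intervals of Rrm1 and Mcm3 lie on the side of higher levels in blood.

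The S members did not move as a set. Of 11 S genes with at least 20 UMIs, 2 were at least 2-fold higher in dura and 1 at least 2-fold lower, and the median log2 ratio was 0.26. Pcna had 221 CPM in dura and 78.2 CPM in blood, 2.83-fold higher (2.28 to 3.52), and Uhrf1, which keeps DNA methylation through replication, had 14.3 CPM in dura and 3.99 CPM in blood. Mcm3 went the other way with 35 UMIs (41.7 CPM) in dura and 233 UMIs (116 CPM) in blood, 2.79-fold lower (1.95 to 4.10). Rrm1 had 25.0 CPM in dura and 42.9 CPM in blood, 1.71-fold lower (1.05 to 2.91). Helicase subunits split: Mcm7 had 66.7 CPM in dura and 45.4 CPM in blood (1.47-fold, 1.03 to 2.07), whereas Mcm6 had 36.9 CPM in dura and 43.9 CPM in blood and Mcm2 19.0 CPM in dura and 26.9 CPM in blood, both with intervals that include equality. The levels of Mcm3 and Rrm1 in blood Bc1 were thus above those in dura, although blood Bc1 cells carried few G2/M transcripts.

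The dural Bc1 signal lay in few cells. Of 836 dural Bc1 cells, 46 (5.50%) had 5 or more G2/M UMIs other than Stmn1 and held 89.0% of the G2/M UMIs, against 5 of 1226 cells (0.408%) holding 17.4% in blood. The 46 cells had more of the precursor genes than the 790 others: Rag2 had 193 CPM in rich cells and 62.5 CPM in the others (3.09-fold, 1.73 to 5.33), and Igll1 had 502 CPM in rich cells and 145 CPM in the others (3.45-fold, 2.43 to 4.86). They had less of the mature B cell genes, with Cd74, the invariant chain of antigen presentation, at 705 CPM in rich cells and 5063 CPM in the others (7.19-fold lower, 5.70 to 9.19) and Ms4a1 at 9.65 CPM in rich cells and 149 CPM in the others. Precursor markers as a list summed to 386 CPM in all dural Bc1 and 8.47 CPM in blood Bc1. The sum of the B cell markers was 7684 CPM in dural and 9934 CPM in blood Bc1. The part of this makeup in the dura-to-blood ratio was not tested.

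Other cell cycle genes in Bc1 followed the same split by phase. Beside the 13.3% higher and 14.6% lower over all measured genes, 13 of 16 measured further G2/M genes were at least 2-fold higher in dura and none lower (median log2 ratio 2.56), including the CDK-binding protein gene Cks2 with 534 CPM in dura and 27.4 CPM in blood (19.5-fold). Smc4, a condensin subunit, had 171 CPM in dura and 144 CPM in blood. Of 18 further S genes, 5 were at least 2-fold higher and none lower (median 0.54), led by the clamp loader subunit Rfc3 with 276 CPM in dura and 62.8 CPM in blood and the dUTPase Dut with 249 CPM in dura and 73.8 CPM in blood. Of 7 measured G1 cyclins, kinases and E2F genes, 3 were at least 2-fold higher, while the G1 cyclin Ccnd3 had 248 CPM in dura and 455 CPM in blood. None of 6 measured inhibitors and pocket protein genes passed 2-fold, and the antiproliferative gene Btg2 had 1744 CPM in dura and 960 CPM in blood.

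Over all rat clusters, Bc1 and Bc2 included, dural G2/M sums were mostly above those of the same cluster elsewhere. Against blood, 6 of 7 clusters with enough cells were higher in dura and none lower by their intervals, and against the pia 8 of 9 were higher and none lower. Against the CSF 6 of 8 were higher and 1 lower, against the CNS 4 of 7 higher and 1 lower, and against the choroid plexus 5 of 8 higher and 2 lower. The lower ones were NK cells in all 3 of these tissues and the dendritic cell cluster mDC1 against the choroid plexus. All 5 counts share the dural library. Without Stmn1, 5 clusters were higher in dura than in blood, 7 than in the pia and 5 than in the CSF. Against the CNS 3 were then higher and 2 lower, and against the choroid plexus 5 higher and 2 lower. Against the CSF 1 was lower without Stmn1, and against blood and the pia none was. The S sums rested on Pcna: without it, the 5 clusters higher in dura than in blood became 2 higher and 1 lower.

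CD4 Tc had a G2/M sum of 1015 CPM in dura and 353 CPM in blood (2.87-fold, 2.61 to 3.17) and an S sum of 568 CPM in dura and 294 CPM in blood (1.93-fold). Of 14 measured G2/M genes 10 were at least 2-fold higher, and of 11 S genes 5, against 13.6% of all measured genes. Genes with few blood UMIs could pass the minimum through the dura, so these counts describe the genes that passed. Mki67 had 32.4 CPM in dura and 3.86 CPM in blood, Top2a 38.8 CPM in dura and 2.90 CPM in blood, and Pcna 269 CPM in dura and 74.4 CPM in blood. In the dura 10 of 591 cells held 75.5% of these G2/M UMIs.

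Dural micro and myeloid3 owed their sums to 13 cells each, which held 97.0% and 88.1% of the G2/M UMIs. Micro had 4514 CPM in dura and 180 CPM in the CNS (25.1-fold, 23.0 to 27.3), with 15 of 16 measured G2/M genes and 9 of 12 S genes at least 2-fold higher, against 20.8% of all measured genes. Aurka was the exception at 76.6 CPM in dura and 126 CPM in the CNS, where its 1031 UMIs made up most of the 180 CPM. The 13 rich dural micro cells carried B lineage transcripts: Cd79a had 1296 CPM in rich cells and 142 CPM in the 93 others, and Igll1 460 CPM in rich cells and 0 in the others. The complement gene C1qa had 1839 CPM in rich cells and 7697 CPM in the others. Myeloid3 had 1630 CPM in dura and 122 CPM in blood (13.4-fold, 11.6 to 15.5), with 8 of 10 measured G2/M genes at least 2-fold higher against 10.2% of all. In both clusters a gene with few UMIs outside the dura could pass the minimum through the dura. The counts for micro and myeloid3 therefore describe only the genes that passed. Top2a had 80.0 CPM in dura and 0 in blood, 60.3-fold higher with the blood cluster set to the floor of 3 UMIs. The floored ratio has no interval of its own. The lower bound of 45.8 belongs to the counts without the floor, 27 UMIs in dura and 0 in blood. Neutrophil markers summed to 5452 CPM in dural and 353 CPM in blood myeloid3, and their part in the difference was not tested.

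NK cells had a lower G2/M sum in dura than in the CSF, choroid plexus and CNS, and a higher one than in blood. The sum was 1101 CPM in dura (357 cells), against 864 CPM in blood, 1128 CPM in the pia, 1343 CPM in the CSF, 2003 CPM in the choroid plexus and 4081 CPM (3797 to 4381) in the CNS (58 cells). The dural sum was 3.71-fold lower than that of the CNS (3.32 to 4.15) and 1.82-fold lower than that of the choroid plexus (1.63 to 2.04). Of 16 measured G2/M genes, 15 were at least 2-fold lower in dura than in the CNS, against 10.8% of all measured genes, and none was 2-fold higher. Here a gene low in dura could pass the minimum through the CNS, so these counts describe the genes that passed. Ube2c had 60.5 CPM in dura and 506 CPM in the CNS (8.37-fold lower, 5.50 to 13.1) and Cdk1 28.2 CPM in dura and 155 CPM in the CNS. Mki67 differed less, with 50.4 CPM in dura and 90.6 CPM in the CNS (1.80-fold lower, 0.911 to 3.46), and Pcna had 286 CPM in dura and 282 CPM in the CNS. In the CNS 11 of 58 NK cells held 97.9% of the G2/M UMIs. The thinned share was 2.12% (0.893 to 4.21) in dural and 13.8% (6.18 to 25.4) in CNS NK cells.

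In the mouse dura the highest G2/M sums, among clusters with at least 20 cells in a condition, were those of 3 clusters. The cluster named BcProg had a G2/M sum of 6528 CPM in EAE (74 cells) and 5363 CPM in naive mice (92 cells), and granuloProli 5108 CPM in EAE (143 cells), with 7 cells in naive mice. Treg, regulatory T cells by name, had 4255 CPM in EAE (116 cells) and 2505 CPM in naive mice (30 cells). GranuloProli held 37.1% of all EAE G2/M UMIs and BcProg 19.5%, whereas in naive mice BcProg held 27%. In EAE 28 of 44 members peaked in BcProg, 10 in granuloProli and 6 in Treg. In naive mice 36 peaked in BcProg, 6 in Treg, 1 in gdTc (gamma delta T cells) and 1 in mast cells. Only clusters with at least 20 cells were ranked, which left out granuloProli in naive mice and the 19 mast cells in EAE. The peak counts of the conditions therefore rank different clusters and do not show a shift between them.

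BcProg carried different lineage markers in the 2 conditions. Its B cell markers summed to 214 CPM in EAE and 6460 CPM in naive mice, its monocyte and macrophage markers to 15120 CPM in EAE and 1647 CPM in naive mice, and its neutrophil precursor markers to 2440 CPM in EAE and 79.6 CPM in naive mice. All 74 EAE cells had 5 or more G2/M UMIs other than Stmn1, against 20 of 92 naive cells. The 20 rich naive cells also differed from the other 72: Lyz2, a myeloid lysozyme, had 2482 CPM in rich cells and 61 CPM in the others, and the B lineage factor Ebf1 1239 CPM in rich cells and 3556 CPM in the others. The BcProg values therefore describe cells under 1 name and are not given as a change within a cell type.

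**Figure D5:**
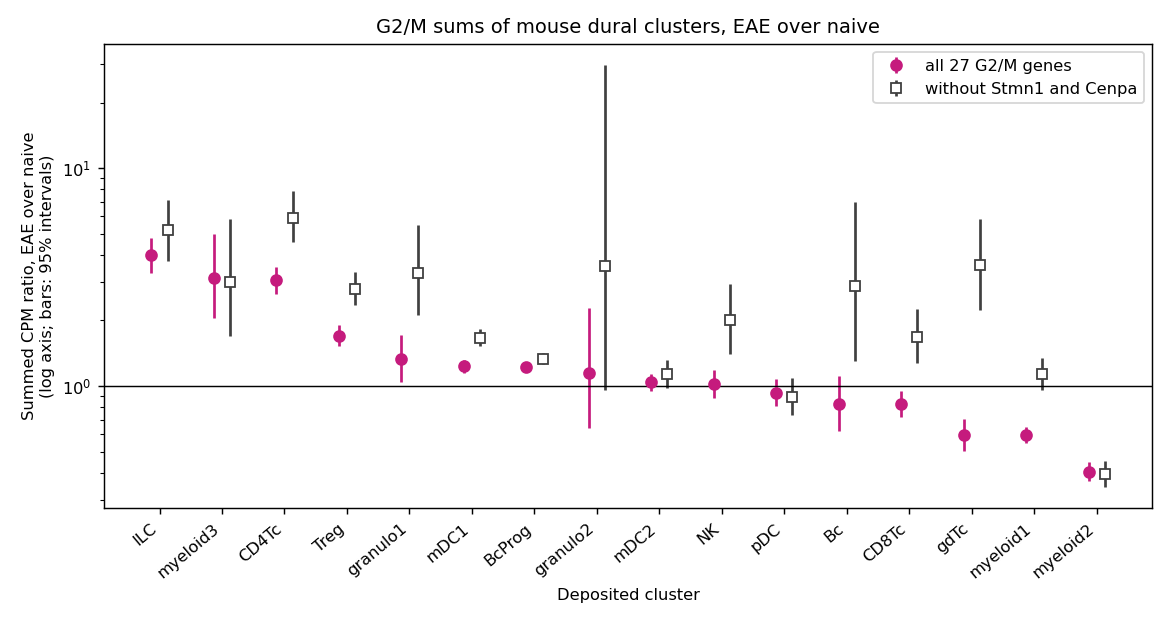
Ratio of the summed G2/M CPM, EAE over naive, on a log axis for 16 mouse dural clusters, with 95% intervals. Filled circles stand for all 27 G2/M genes and open squares for the sum without Stmn1 and Cenpa; gdTc lies below the line of equality with all genes (1.68-fold lower) and above it without both (3.59-fold higher).

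Across 16 clusters with at least 20 cells in both conditions, the G2/M sum was higher in EAE in 7 and lower in 4 by their intervals. The 2 libraries differed in depth. Among cells with at least 5722 UMIs, the depth of the shallowest EAE cell, the sum was higher in EAE in 3 and lower in 6 of the 11 clusters that could be compared. BcProg then had a log2 ratio of -0.36, and CD4Tc and Treg had too few naive cells. The count also moved with the member genes: it was 9 higher and 3 lower without Stmn1. Cenpa, whose transcripts lay mostly outside cells rich in G2/M transcripts in naive mice, reached 431 CPM in naive gdTc and 485 CPM in naive Treg. Without Stmn1 and Cenpa, a choice made after these values were seen, the sum was higher in EAE in 11 clusters and lower in 1. In gdTc the full sum was 300 CPM in EAE and 504 CPM in naive mice (1.68-fold lower, 1.42 to 1.99), and without both genes it was 73.8 CPM in EAE and 20.5 CPM in naive mice (3.59-fold higher, 2.23 to 5.82). Of the gdTc members with at least 20 UMIs, 0 of 2 G2/M genes were at least 2-fold higher and 1 of 2 lower, and of 8 S genes 1 was higher and 3 were lower, against 8.35% higher and 8.41% lower over all measured genes. The lower G2/M gene was Cenpa, with 195 CPM in EAE and 431 CPM in naive mice. The sum without both genes also turned in CD8Tc, with 112 CPM in EAE and 66.3 CPM in naive mice. The cluster that stayed lower was myeloid2, with 217 CPM in EAE and 550 CPM in naive mice (2.54-fold lower, 2.20 to 2.91).

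CD4Tc carried more of both gene sets in EAE. The G2/M sum was 609 CPM in 152 EAE cells and 200 CPM in 353 naive cells (3.05-fold, 2.64 to 3.53), and the S sum 534 CPM in EAE and 217 CPM in naive mice (2.46-fold, 2.14 to 2.84). Of the members with at least 20 UMIs, 8 of 10 G2/M and 10 of 13 S genes were at least 2-fold higher and none was 2-fold lower. Over all 7192 measured genes, 17.1% were 2-fold higher and 9.32% 2-fold lower, and the median log2 ratio was 2.19 for the G2/M genes, 1.34 for the S genes and 0.22 for all genes. The other 17 G2/M and 4 S members had at most 14 UMIs in either condition. A gene with few naive UMIs could pass the minimum through EAE, so the counts describe the genes that passed. T cell markers summed to 3910 CPM in EAE and 1201 CPM in naive CD4Tc, and neutrophil markers to 6711 CPM in EAE and 143 CPM in naive CD4Tc. Their part in the difference was not tested.

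Among the G2/M members of CD4Tc, Stmn1 had 178 CPM in EAE and 46.4 CPM in naive mice (3.85-fold, 2.88 to 5.21), and Top2a 45.7 CPM in EAE and 8.64 CPM in naive mice (5.29-fold, 2.75 to 11.2). Mki67 had 44 UMIs in EAE and 4 in naive mice, 10.9-fold higher (3.95 to 41.6). Cyclin B2 (Ccnb2) had 55 UMIs in EAE and 2 in naive mice, Birc5 51 in EAE and 2 in naive mice, and Cdca8 31 in EAE and 2 in naive mice. The exceptions were Cenpa, with 122 CPM in EAE and 101 CPM in naive mice (1.21-fold, 0.952 to 1.54), and Kif23, with 10.9 CPM in EAE and 13.4 CPM in naive mice. The same pair of G2/M genes had the lowest shares of UMIs in cells rich in G2/M transcripts in naive mice.

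Among the S members of CD4Tc, the helicase subunit Mcm3 had 119 UMIs (92.3 CPM) in EAE and 14 UMIs (11 CPM) in naive mice, 8.39-fold higher (4.81 to 15.8), and Mcm5 46.5 CPM in EAE and 5.50 CPM in naive mice, 8.46-fold higher (3.86 to 21.9). Mcm6 had 61.2 CPM in EAE and 16.5 CPM in naive mice, Mcm4 52.7 CPM in EAE and 23.6 CPM in naive mice, and the helicase activator subunit Gins2 20.9 CPM in EAE and 3.14 CPM in naive mice. The 3 measured S genes under 2-fold were Pcna, with 51.9 CPM in EAE and 58.9 CPM in naive mice (1.13-fold lower, 0.805 to 1.60), Rrm1, with 31.0 CPM in EAE and 27.5 CPM in naive mice, and Cdt1, with 26.4 CPM in EAE and 22.0 CPM in naive mice. Mcm3 was thus higher in EAE than in naive CD4Tc. The rat Bc1 ratio of Mcm3 given above concerns another species, cell type and contrast and is not compared with it.

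Of the other lists in CD4Tc, 11 of 20 measured S genes and 6 of 10 measured G2/M genes were at least 2-fold higher in EAE and none lower, beside 17.1% higher and 9.32% lower over all measured genes. Among them the replication checkpoint adaptor Clspn was 29.6-fold and the maintenance methyltransferase gene Dnmt1 4.19-fold higher. Cks2 had 160 CPM in EAE and 48.7 CPM in naive mice, while the chromatin protein gene Hmgb2, with 823 CPM in EAE and 630 CPM in naive mice, was 1.31-fold higher. None of 10 measured inhibitors and pocket protein genes passed 2-fold, and the antiproliferative gene Btg1 had 1120 CPM in EAE and 2179 CPM in naive mice. Of 6 measured G1 genes, 1 was 2-fold higher (E2f1, 5.59-fold) and 1 was 2-fold lower (Myc, 0.775 CPM in EAE and 33.8 CPM in naive mice).

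Thinned to 1000 UMIs, 6.43% (3.1 to 11.6) of EAE CD4Tc and 1.96% (0.785 to 4.02) of naive CD4Tc had 2 or more G2/M UMIs other than Stmn1. The share in the granulocyte cluster granulo2, taken as background, was 0.247% in EAE (median depth 7996.5 UMIs) and 0.509% in naive mice (2604 UMIs). Leaving Cenpa out as well gave 4.54% in EAE and 0.255% in naive CD4Tc. Granulo2 then had 0.0944% in EAE and 0% in naive mice. Naive mast cells, also chosen as background, then had 1.17% (0.132 to 4.26) in the 164 of 234 cells deep enough. That share is above the one of naive CD4Tc. One naive CD4Tc cell and 2 naive granulo2 cells were too shallow and were left out. Without thinning the shares were 54.6% in EAE and 12.2% in naive mice, at median depths of 7318.5 UMIs in EAE and 3445 UMIs in naive mice.

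Treg showed the G2/M difference with little in the S genes. The G2/M sum was 1.70-fold higher in EAE (1.53 to 1.90), and the S sum was 1652 CPM in EAE and 1456 CPM in naive mice (1.13-fold, 0.984 to 1.31). Of 26 measured G2/M genes 17 were at least 2-fold higher, and of 17 S genes 2 were higher and 1 lower, against 15.2% higher and 9.53% lower over all measured genes. With 30 naive and 116 EAE cells, a gene with few naive UMIs could pass the filter through EAE. The counts therefore describe the genes that passed. Mki67 had 249 CPM in EAE and 57.1 CPM in naive mice (4.37-fold, 2.20 to 10.2), and Cenpf 107 CPM in EAE and 14.3 CPM in naive mice. Cenpa was 1.87-fold lower in EAE (1.42 to 2.41), Pcna 1.72-fold lower (1.15 to 2.5) and Cdt1 2.31-fold lower (1.17 to 4.23). Thinned shares were 45.7% in EAE and 28.8% in naive mice, and 43.0% in EAE and 11.8% in naive mice without Cenpa. Neutrophil markers summed to 6778 CPM in EAE and 121 CPM in naive Treg, and their part in the difference was not tested.

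In myeloid1, with 1000 EAE and 227 naive cells, the sum was 238 CPM in EAE and 400 CPM in naive mice (1.68-fold lower, 1.54 to 1.82). Of 22 measured G2/M genes 7 were at least 2-fold higher and 1 lower, and of 17 S genes 1 was higher and 2 lower, against 20.8% higher and 4.59% lower over all measured genes. The lower sum came from Stmn1, with 45.4 CPM in EAE and 186 CPM in naive mice (4.10-fold lower, 3.57 to 4.71), and Cenpa, with 93.7 CPM in EAE and 127 CPM in naive mice (1.35-fold lower, 1.16 to 1.56). Without these genes it was 99.2 CPM in EAE and 87.2 CPM in naive mice (1.14-fold, 0.962 to 1.35). Mki67 had 16.8 CPM in EAE and 19.7 CPM in naive mice and Top2a 10.8 CPM in EAE and 12.4 CPM in naive mice, both with intervals that include equality. Pcna was 2.54-fold lower in EAE (2.12 to 3.03), with 38.3 CPM in EAE and 97.3 CPM in naive mice, and Cdt1 was 1.54-fold higher (1.08 to 2.26). The helicase genes Mcm3 and Mcm4 had 24.0 and 18.6 CPM in EAE, against 25.9 and 18.6 CPM in naive mice.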

How the data were processed

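Droplet 3′ libraries of 6 rat tissues and 2 mouse dura conditions were analysed, with 1 library per group and groups taken from sample titles, source names and the deposited annotation. The deposited matrices hold UMI counts per gene and barcode, for which the submitters' processing notes name Cell Ranger 3.1.0 and the header of the rat matrix names version 3.0.2. The submitters' processing notes name the genome builds mm10 and Rnor_6.0. Clusters are the authors' deposited labels, and barcodes without one (5114 rat, 771 mouse) entered no comparison. The labels' protocols state means of 4384 ± 736 cells per rat tissue and 3900 ± 1100 per mouse sample (SEM). The files hold 4383.5 barcodes per rat library (3531.2 with a cluster) and 4063 per mouse library (3677.5 with a cluster).

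UMIs of a gene or gene set were added up within each cluster and group of 20 or more cells and divided by all UMIs of those cells (CPM), with exact Poisson intervals. Ratios have exact conditional binomial intervals and shares have exact Clopper-Pearson intervals at 95%, all for counting error only. Genes with at least 20 UMIs over both sides were counted as higher or lower at 2-fold, and a side at 0 was set to a floor of 3 counts. A gene low on 1 side could reach that minimum through the other, so such counts describe the genes that passed. Thinning to 500 (rat) or 1000 (mouse) UMIs gave expected shares of cells. Their intervals put this expected count, which need not be whole, into the Clopper-Pearson formula and are approximate rather than exact. With 1 library per group there is neither a test nor a p-value. The ratio and interval code was tested on simulated data.

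Doublets were marked with scrublet in scanpy 1.11.5, at 0 to 1.81% of a library. The caller marked under 0.5% of CNS, pia and naive mouse cells and is not taken to have worked there. Marked cells were kept, with their removal as an alternative. Scripts used Python 3.11.15, numpy 2.4.6, pandas 2.3.3, scipy 1.17.1, matplotlib 3.10.9 and R 4.3.3, and edgeR 4.0.16 for TMM scaling as an alternative. In the comparisons of rat Bc1 (dura over blood) and mouse CD4Tc, the text names the 5 G2/M and 5 S members with the most UMIs. It also names the 3 highest and 3 lowest ratios there, members that differ in direction from their sum, and Mki67, Top2a and Pcna. Some others are named for their role. Fewer members are named in the remaining comparisons. In mouse myeloid1 the G2/M genes at least 2-fold higher in EAE were counted but not named. The members, gene lists and alternatives were chosen with earlier results of these data known.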

Additional observations from a re-analysis of the deposited data

Results flagged for a closer look

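In the mouse, clusters moved in opposite directions between EAE and naive dura by more than 2-fold. The G2/M sum had a log2 ratio of EAE over naive of 1.61 in CD4Tc, 1.99 in ILC (innate lymphoid cells by name) and 1.65 in myeloid3, but of -1.31 in myeloid2. With 1 library per condition the difference between these clusters was not tested. ILC had 521 CPM in EAE and 131 CPM in naive mice, and Top2a there had 57.3 CPM in EAE and 3.78 CPM in naive mice. T cell markers summed to 1917 CPM in EAE and 70.9 CPM in naive ILC, and neutrophil markers to 4374 CPM in EAE and 164 CPM in naive ILC. Myeloid3 had 411 CPM in EAE and 131 CPM in naive mice, and myeloid2 399 CPM in EAE and 987 CPM in naive mice. Their part in these ratios was not tested.

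Barcodes to which the authors gave no cluster, which no comparison above uses, carried G2/M transcripts above the level of the annotated cells of their own library in 5 libraries. In the rat dura the 241 such barcodes had 7478 CPM, and 102 of them (42.3%) had 5 or more G2/M UMIs other than Stmn1, against 2151 CPM and 8.08% of annotated cells. The sum was 3291 CPM in 48 CNS barcodes and 1322 CPM in 115 blood barcodes. In the mouse it was 2596 CPM in 421 EAE barcodes and 2423 CPM in 350 naive barcodes. Monocyte and macrophage markers summed to 8313 CPM, B precursor markers to 2111 CPM and B cell markers to 1245 CPM in the 102 dural barcodes.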

How the results depend on the processing

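No paired analysis was possible because each group is 1 library. Values are log2 ratios unless stated. The Bc1 dura over blood G2/M ratio (3.06) was 2.89 with TMM scaling, which shifts all genes by -0.17, 2.47 with every cell weighted the same and 2.65 without the top 5% of cells by UMIs. The Bc1 S ratio (0.36) was 0.19, 0.05 and 0.09 under those settings and -0.09 without Pcna. The EAE over naive G2/M ratio of CD4Tc (1.61) was 2.57 without Stmn1 and Cenpa. That of myeloid1 (-0.75) was -1.02 with TMM scaling, -0.15 without Stmn1 and 0.19 without Stmn1 and Cenpa. The 7 clusters higher in EAE for G2/M became 11 without Stmn1 and Cenpa. Among cells at or above the depth of the shallowest EAE cell, 3 of 11 comparable clusters were higher and 6 lower; CD4Tc and Treg were not comparable there. The 5 clusters higher for S became 10 with equal weights, 8 without Pcna and 2 of 11 at that depth.

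Members at least 2-fold higher were 20 in Bc1 and 13 at a minimum of 50 UMIs, and 18 in CD4Tc, with 30 at a minimum of 1 UMI and 10 at 50 UMIs. The thinned share of dural Bc1 (5.58%) was 16.7% at 1000 UMIs (in the 285 of 836 cells that deep), 8.01% without thinning and 11.8% for 1 or more UMIs. That of dural Bc2 (61.1%) was 76.3% (337 of 371 cells), 77.1% and 73.5% likewise, and 50.9% for 3 or more. For CD4Tc at 2000 UMIs, without thinning, and for 1 or more and 3 or more UMIs, it was 13.5%, 54.6%, 24.8% and 3.01% in EAE and 5.28%, 12.2%, 11.9% and 0.521% in naive mice; without Cenpa the naive share was 0.255%.

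Of up to 106 other ratios, 7 changed sign with TMM, 9 with equal weights, 9 without the top 5% of cells, 10 without Stmn1 or Pcna and 1 without doublets. Those whose interval had excluded equality were, without Stmn1 or Pcna, dural CD4 Tc over CNS G2/M (-0.14 from 0.27), myeloid 2 over CNS S (-0.18 from 0.27), myeloid1 over CSF S (-0.20 from 0.85) and over blood S (-0.47 from 0.64), and mouse myeloid1 S (0.05 from -0.36). With equal weights they were mouse granulo1 G2/M (-0.25), dural CD4 Tc over CNS G2/M (-0.10) and mDC1 over choroid plexus G2/M (0.42), which was 1.21 without the top 5% of cells. With TMM, mouse mDC1 G2/M was -0.02. Among cells at or above the depth of the shallowest EAE cell, BcProg was -0.36 for G2/M and -0.48 for S. In a separate setting without Stmn1 and Cenpa, over cells of every depth, CD8Tc was 0.75 and gdTc 1.84 for G2/M. Removing marked doublets moved none of the 106 other sums beyond its interval. The cause of these changes was not tested.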

Other observations

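Rat CNS microglia carried 1 mitotic gene at a level unlike the rest. Aurka had 1031 UMIs (126 CPM) in 2974 CNS micro cells, in which Top2a had 9 UMIs, Mki67 5 UMIs and Ube2c 2 UMIs. Aurka was also the G2/M gene with the lowest share of dural UMIs in rich cells and had 29.6 CPM in dural and 31.4 CPM in blood myeloid3. In naive mouse gdTc, Cenpa had 713 UMIs where all G2/M genes other than Cenpa and Stmn1 together had 34. Reads shared between overlapping genes cannot be told from reads of these genes with the files used here.

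The G1 cyclin Ccnd3, which acts in dividing B cell precursors, had a higher level in rich than in other cells of 3 clusters with B lineage names. The ratio was smallest in dural Bc2. In dural Bc2 it had 728 CPM in rich cells and 587 CPM in the others, in dural Bc1 511 CPM in rich cells and 210 CPM in the others (2.43-fold), and in naive mouse BcProg 437 CPM in rich cells and 108 CPM in the others (4.05-fold). The rich naive BcProg cells also had more Lyz2 and less Ebf1 than the others, as given above, and the part of this in the ratio was not tested. The clusters were compared within 1 library each, and no test was possible.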
